A study of Homo sapiens with 6 samples.

Results

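Aminoacyl-tRNA synthetases load each amino acid onto its tRNA, and they work in the cytosol or in mitochondria, mostly as the products of separate genes. The synthetases described here are 36 genes chosen by exact name, 20 for cytosolic enzymes and 16 whose name ends in 2 and whose enzymes serve mitochondria. They stand among 26906 rows of gene names. RNA was measured in BE-(2)-C cells, a clonal human neuroblastoma line with an amplified MYCN gene, in 3 libraries after ELF4 siRNA and in 3 libraries after control siRNA, each taken 48 hours after treatment. ELF4 is a transcription factor of the ETS family. Both groups are the same line in the same medium and differ by the siRNA alone, as far as the labels say, and how many different siRNAs were used against ELF4 is not given in the sources used here.

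A synthetase uses ATP to activate its amino acid and then passes it to the tRNA, and 8 of the cytosolic enzymes sit together in a multisynthetase complex. GARS and KARS each encode the enzyme of both compartments, EPRS joins the glutamyl and prolyl activities in 1 protein, and FARSA and FARSB are the subunits of a single phenylalanyl enzyme. Many cytosolic synthetase genes are known targets of ATF4, the transcription factor of the amino acid response, which binds a composite element together with a C/EBP partner. Mitochondrial synthetases are made from nuclear genes and imported, and they supply the translation of the few proteins encoded by mitochondrial DNA.

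To look for that element members were matched to promoter windows, and 30 of the 36 were found in the RefSeq promoter table of GRCh38.p14, which spans 250 bases before to 50 bases after each start site. DARS, LARS, VARS, YARS, AARS2 and VARS2 were not matched. The composite element was searched as TGATGNAA on both strands. Its 7 matches among the 30 windows were in AARS, CARS, IARS, MARS, NARS, TARS and YARS2, and 6 of these are cytosolic genes. The matches of the 6 cytosolic genes are printed because they share the same letters, in capitals, within 60 bases (51 for NARS) of each gene's own strand, 5′ to 3′.
CARS: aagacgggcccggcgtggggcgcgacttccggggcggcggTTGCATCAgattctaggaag
AARS: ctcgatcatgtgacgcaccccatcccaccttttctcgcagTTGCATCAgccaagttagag
MARS: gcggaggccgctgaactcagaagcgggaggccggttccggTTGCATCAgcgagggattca
IARS: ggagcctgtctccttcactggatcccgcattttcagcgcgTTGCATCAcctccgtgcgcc
NARS: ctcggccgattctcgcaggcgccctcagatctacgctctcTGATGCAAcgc
TARS: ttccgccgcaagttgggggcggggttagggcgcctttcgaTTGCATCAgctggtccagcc
The stretches lie at chr11:3057406-3057465 on the minus strand for CARS, chr16:70289674-70289733 on the minus strand for AARS and chr12:57488024-57488083 on the plus strand for MARS. They lie at chr9:92293691-92293750 on the minus strand for IARS, chr18:57621812-57621862 on the minus strand for NARS and chr5:33440927-33440986 on the plus strand for TARS. In 5 of the 6 the element reads TTGCATCA along the gene, its reverse complement, and in NARS it reads TGATGCAA. Counted from the start site, whose first transcribed base is position 1, the match begins at -2 in CARS, -4 in MARS and -13 in IARS, at -187 in AARS, and at 3 in TARS and 15 in NARS. Of the 16 cytosolic genes with a window 37.5% held the element, as did 1 of 14 mitochondrial genes and 3.67% of all 27305 RefSeq promoters. No match stood in the windows of GARS and EPRS. A match of letters is a description and does not show that a factor binds there.

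The windows were also read for the letters of ETS binding, since ELF4 belongs to that family. CCGGAAGT, on either strand, was found in 7 of 30 windows (23.3%), against 4.44% of all RefSeq promoters. These windows are those of CARS, HARS, NARS and WARS among the cytosolic genes and of EARS2, HARS2 and PARS2 among the mitochondrial ones. HARS and HARS2 are neighbours read in opposite directions, and their windows overlap on chr5, so their matches are shared. The shorter GGAAGT, which lies inside CCGGAAGT, was in 8 of 30 windows (26.7%) and in 23.2% of all promoters. The E-box CACGTG, which reads the same on both strands and can be bound by MYC proteins, was in 4 of 30 windows (13.3%), in IARS, CARS2, EARS2 and MARS2, and in 7.43% of all promoters. None of these shares was tested, and here too a match does not show that a factor binds.

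The targeted gene checks the labels. ELF4 had 5.51, 5.61 and 3.10 normalised reads in the ELF4 siRNA libraries, against 42.4, 38.8 and 46.8 in the control siRNA libraries, which is 11.1% of the control mean. The libraries held 23148635 to 38097986 reads. All 9 markers of sympathoadrenal neuroblastoma were detected. Of markers of other cell types, SOX10 of Schwann cells was under the limit for testing. Epithelial markers summed to 185 to 226 normalised reads after ELF4 siRNA and 228 to 247 after control siRNA, with CDH1 under that limit. Blood and endothelial markers summed to 34.1 to 48.3 after ELF4 siRNA and 51.4 to 63.1 after control siRNA, with CDH5 under it. Fibroblast markers, 4 of 5 of which rose, summed to 2952 to 3357 after ELF4 siRNA and 1852 to 1915 after control siRNA. Their part in the results below was not tested. In bulk RNA, fewer cells of a type and less RNA per cell cannot be told apart.

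Values are normalised read counts, the reads of a gene divided by a size factor for the library. The 20339 genes that reached 10 or more in 3 or more libraries were each tested with limma on log2(value + 1), and a gene is said to have risen or fallen when its Benjamini-Hochberg adjusted p over all of them was under 0.05. Log2 fold changes are of ELF4 siRNA over control siRNA. By this rule 20.7% of all tested genes rose and 24.4% fell, so 46.0% of the calls were rises, and with upper-quartile scaling 58.2% were. Among genes with a mean of at least 100, a level that all 35 tested synthetases reach, 25.7% rose and 33.9% fell when they were tested alone. The groups did not overlap for 53.6% of all tested genes and for 64.6% of those with a mean of at least 100. The labels do not say whether the libraries of a group came from separate cultures, so the p-values measure the spread between libraries, which may be technical.

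By the rule above, most cytosolic synthetase RNAs rose after ELF4 siRNA. Of the 20 genes, 13 rose, by 6.99% to 38.1% of their control mean, 2 fell and 5 did not pass the test. The median log2 fold change over the 20 was 0.13, where it was -0.0042 over all tested genes. The rises were led by CARS, GARS, EPRS, FARSA, AARS and MARS. Fewer genes rose at some other settings, 7 of the 20 with limma run without the trend and 9 without ELF4 siRNA replicate 1. The groups did not overlap for 17 of the 20 (85.0%), beside 53.6% of all tested genes and 64.6% of those with a mean of at least 100. For the count of rises, 20.7% of all tested genes rose, and 25.7% of those with a mean of at least 100, tested alone.

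**Figure D1:**
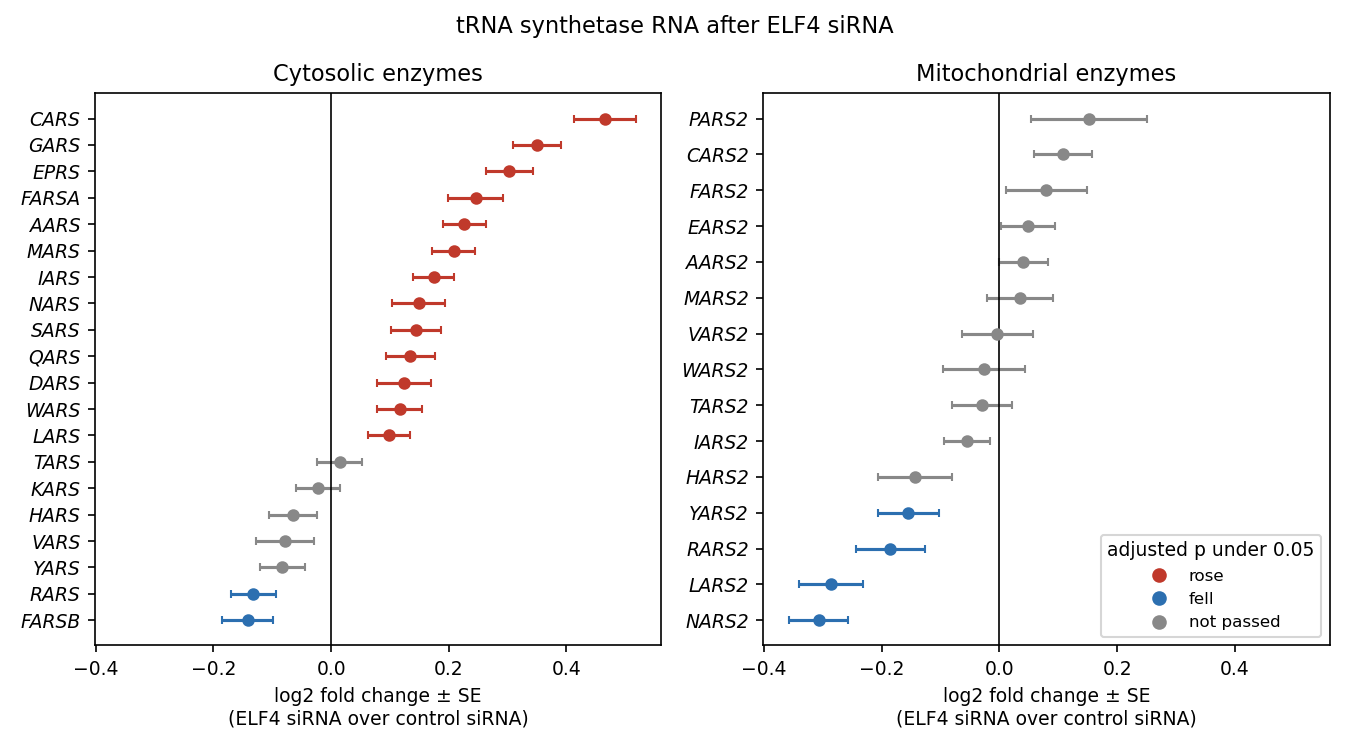
Log2 fold change (ELF4 siRNA over control siRNA) of each tested synthetase with its standard error, cytosolic genes and mitochondrial genes apart, coloured by call. Cytosolic genes reach 0.46 (CARS), while no mitochondrial gene passed the test above 0 and NARS2 is lowest at -0.31.

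CARS charges cysteine, and it was the synthetase with the largest change. Its 3 values after ELF4 siRNA were 1735, 1806 and 1939.5 normalised reads, against 1339, 1365 and 1264 after control siRNA. All 3 ELF4 siRNA libraries were above all 3 control libraries, and it rose by 0.46 on the log2 scale (SE 0.05, limma adjusted p = 7.27e-06). Per kilobase of coding sequence CARS is nevertheless the least abundant cytosolic synthetase, at 733 normalised reads after ELF4 siRNA and 531 after control siRNA.

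GARS, the glycyl enzyme of both compartments, had 11331, 11119 and 12084 normalised reads after ELF4 siRNA and 9217, 8844 and 9009.96 after control siRNA. It rose by 0.35 on the log2 scale (SE 0.04, limma adjusted p = 8.96e-06), and the lowest ELF4 siRNA library lay well above the highest control library. EPRS had 11971, 12207 and 12868 normalised reads after ELF4 siRNA and 10211, 9718 and 10089.5 after control siRNA, again without overlap. Its log2 fold change was 0.30 (SE 0.04, limma adjusted p = 2.81e-05). KARS, the lysyl enzyme and the other gene that serves both compartments, had 7027, 7239 and 6870.1 after ELF4 siRNA and 7100.5, 7279 and 7081 after control siRNA. The KARS groups overlapped, and its log2 fold change of -0.02 (SE 0.04) did not pass the test. The difference between GARS and KARS in response was not tested.

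AARS charges alanine, and it had 7949, 8111 and 8269 normalised reads after ELF4 siRNA and 7007, 6907 and 6882 after control siRNA. MARS charges methionine, for the initiator tRNA as well as for elongation, and it had 9158, 9395 and 9445 after ELF4 siRNA and 8110.5, 8251 and 7875 after control siRNA. The groups were apart in both genes, with log2 fold changes of 0.23 (SE 0.04, limma adjusted p = 0.000164) for AARS and 0.21 (SE 0.04, limma adjusted p = 0.000377) for MARS. IARS, the isoleucyl enzyme, had the highest values of all members before any account of length, at 15845, 15912 and 16226 after ELF4 siRNA and 14336, 14027 and 14159 after control siRNA. Its log2 fold change was 0.17 (SE 0.03, limma adjusted p = 0.000918).

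The rises of CARS, GARS, EPRS, AARS, MARS, FARSA and IARS passed the test at all 17 alternative settings that kept adjusted p as the sole threshold, and those of CARS, GARS and EPRS also passed when a log2 fold change of at least 0.25 was required. Smaller rises were those of NARS (0.15, asparaginyl), SARS (0.14, seryl), QARS (0.13, glutaminyl), DARS (0.12, aspartyl), WARS (0.12, tryptophanyl) and LARS (0.10, leucyl), all log2 fold changes with no overlap of the groups. None of these 6 passed when limma was run without the trend (adjusted p = 0.0782 to 0.127), and DARS did not pass with DESeq2 either. Their calls also depend on single libraries. DARS and LARS still passed without ELF4 siRNA replicate 2, and each of the other 5 omissions ended the call of both. QARS did not pass without ELF4 siRNA replicate 1, ELF4 siRNA replicate 2 or control replicate 3, and WARS did not pass without ELF4 siRNA replicate 1, ELF4 siRNA replicate 3, control replicate 1 or control replicate 3. NARS did not pass without ELF4 siRNA replicate 3, and SARS did not pass without control replicate 1 or control replicate 3. Without control replicate 3 the rises numbered 8.

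The subunits of the phenylalanyl enzyme moved in opposite directions. FARSA, the catalytic subunit, had 4418, 4566 and 4062 normalised reads after ELF4 siRNA and 3717, 3689 and 3588 after control siRNA, and it rose by 0.25 on the log2 scale (SE 0.05, limma adjusted p = 0.00065). FARSB, the other subunit, had 5334, 4878 and 4875 after ELF4 siRNA and 5551, 5439.9 and 5641 after control siRNA, and it fell by 0.14 on the log2 scale (SE 0.04, limma adjusted p = 0.0163). Neither gene's groups overlapped. The ratio of FARSA to FARSB within a library, chosen after the values were seen and so not tested, was 0.828, 0.936 and 0.833 after ELF4 siRNA and 0.670, 0.678 and 0.636 after control siRNA. This ratio does not depend on the scaling of the libraries, and it shows unequal change of the subunits.

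RARS, the arginyl enzyme, was the other cytosolic gene that fell. It had 3303, 3242 and 3227 normalised reads after ELF4 siRNA and 3559.7, 3532 and 3617 after control siRNA, which is -0.13 on the log2 scale (SE 0.04, limma adjusted p = 0.0119). All 3 ELF4 siRNA libraries lay below all 3 control libraries. FARSB and RARS did not pass without the trend, nor under upper-quartile scaling, where their log2 fold changes were -0.08 and -0.07. Neither passed without control replicate 3, and FARSB also did not pass without ELF4 siRNA replicate 2, ELF4 siRNA replicate 3 or control replicate 1. The cytosolic genes that did not pass were KARS, TARS (threonyl) at a log2 fold change of 0.01, HARS (histidyl) at -0.07, VARS (valyl) at -0.08 and YARS (tyrosyl) at -0.08. TARS holds the composite element at the start of its transcript, and its values of 9434, 9287 and 9821 after ELF4 siRNA overlapped with 9476, 9178 and 9597 after control siRNA.

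Where the element stood, 5 of 6 cytosolic genes rose, and where no match was found in the window, 6 of 10 did. Neither count was tested. Place in the multisynthetase complex and structural class, 2 divisions chosen after the values were seen, were only counted. In the complex 6 of 8 genes rose and 1 fell, and outside it 7 of 12 rose and 1 fell. Of the class I enzymes 6 of 9 rose, and of the class II enzymes 6 of 10 rose, with 1 fall in each. EPRS, which joins an enzyme of each class, is counted in neither. Beside these counts, 20.7% of all tested genes rose and 24.4% fell. Of genes with a mean of at least 100, tested alone, 25.7% rose and 33.9% fell.

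**Figure D2:**
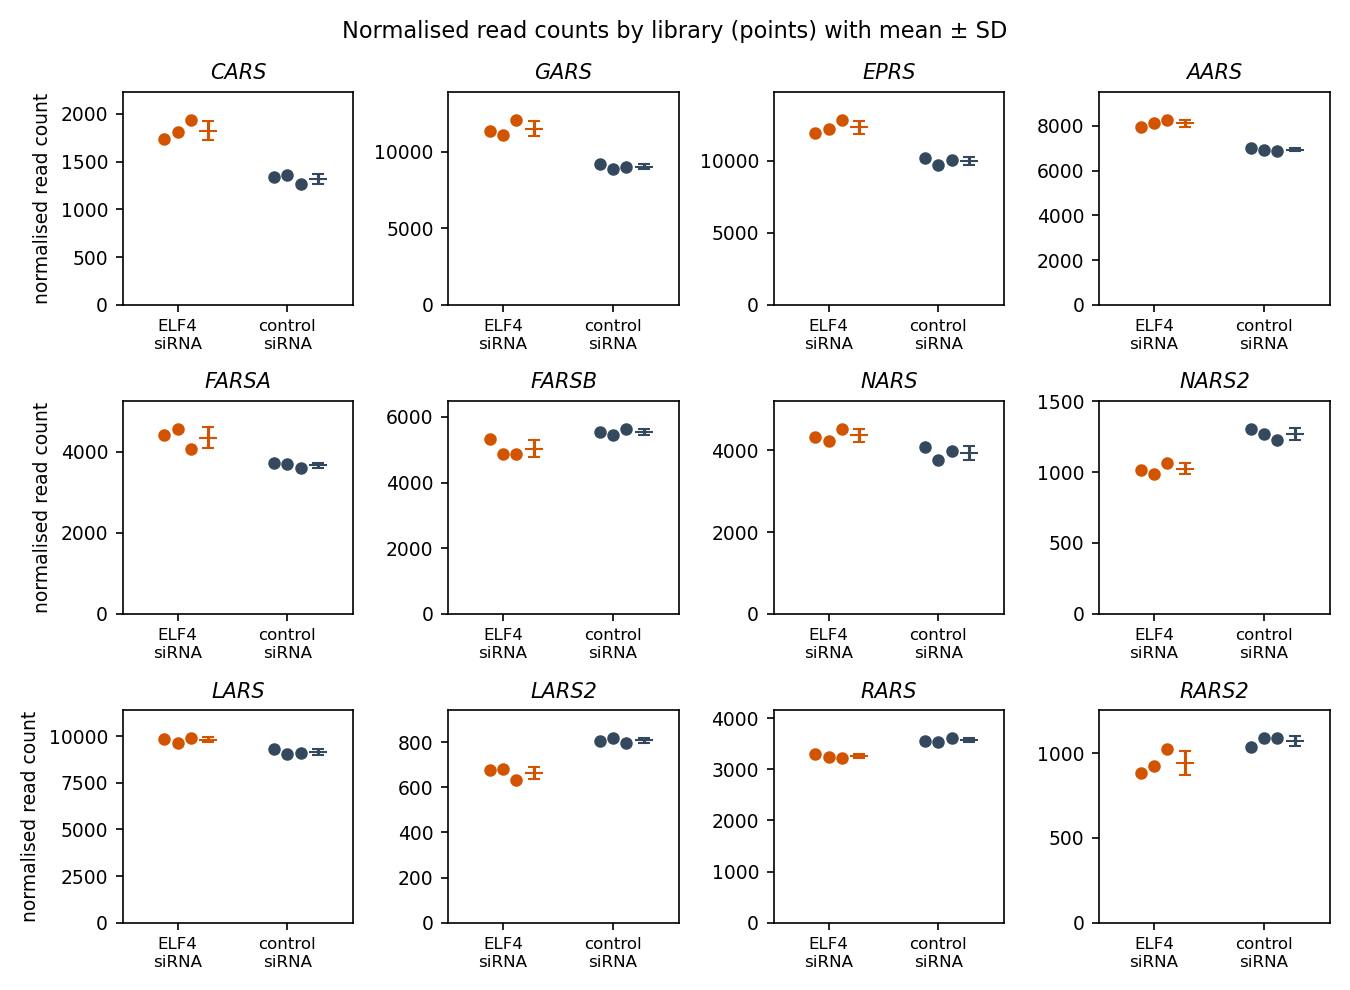
Normalised read count (vertical axis, starting at 0) of 12 synthetases in each ELF4 siRNA library (left) and each control siRNA library (right), as points, with the mean and SD of each group beside them. CARS, GARS and EPRS stand higher in all 3 ELF4 siRNA libraries, and NARS2 and LARS2 stand lower in all 3.

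Of the 16 mitochondrial synthetase genes 15 were tested, and 0 rose, 4 fell and 11 did not pass. The falls were those of NARS2, LARS2, RARS2 and YARS2. By unadjusted p under 0.05, 6 of the 15 differed, where 51.7% of all tested genes did, and by edgeR and by DESeq2 on recovered reads 0 rose. The median log2 fold change was -0.03 and turned to 0.04 under upper-quartile scaling. The groups did not overlap for 8 of the 15 (53.3%), beside 53.6% of all tested genes and 64.6% of those with a mean of at least 100. The 4 falls of 15 genes are likewise near the share of all tested genes that fell.

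NARS2, the asparaginyl enzyme, had 1016, 990.0 and 1067 normalised reads after ELF4 siRNA and 1306, 1271 and 1225 after control siRNA. Its log2 fold change was -0.31 (SE 0.05, limma adjusted p = 0.000199), with all ELF4 siRNA libraries below all control libraries. LARS2, the leucyl enzyme, had 674, 682 and 630.3 after ELF4 siRNA and 807, 819 and 798 after control siRNA. Its log2 fold change was -0.29 (SE 0.05, limma adjusted p = 0.000609), also with no overlap. The falls of NARS2 and LARS2 passed the test at all 17 of those settings and when a log2 fold change of at least 0.25 in size was required.

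RARS2 and YARS2, the arginyl and tyrosyl enzymes, also fell. RARS2 had 881, 926 and 1023 normalised reads after ELF4 siRNA and 1035, 1091 and 1087 after control siRNA, with ELF4 siRNA replicate 3 only just below the lowest control library. Its log2 fold change was -0.19 (SE 0.06, limma adjusted p = 0.0198). YARS2 had 912, 849 and 890.1 after ELF4 siRNA and 993, 1003 and 955 after control siRNA, which is -0.15 on the log2 scale (SE 0.05, limma adjusted p = 0.0241). Neither passed without the trend or under upper-quartile scaling, and YARS2 did not pass with DESeq2. RARS2 did not pass without ELF4 siRNA replicate 1, ELF4 siRNA replicate 2 or control replicate 3, and YARS2 did not pass without ELF4 siRNA replicate 2, control replicate 1 or control replicate 2.

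The mitochondrial genes that did not pass ran between log2 fold changes of 0.15 for PARS2 (prolyl) and -0.14 for HARS2 (histidyl). Between these lay CARS2 (cysteinyl) at 0.11, FARS2 (phenylalanyl) at 0.08, EARS2 (glutamyl) at 0.05, AARS2 (alanyl) at 0.04, MARS2 (methionyl) at 0.04, VARS2 (valyl) at -0.004, WARS2 (tryptophanyl) at -0.03, TARS2 (threonyl) at -0.03 and IARS2 (isoleucyl) at -0.06. IARS2 is the most abundant of the mitochondrial enzymes, with 4881, 4627 and 4895 normalised reads after ELF4 siRNA and 5045, 4898 and 5022 after control siRNA. These groups lay next to each other without overlap. CARS2 passed as a rise under upper-quartile scaling alone (limma adjusted p = 0.0126), and over all 17 alternatives its adjusted p ran between 0.0126 and 0.292.

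Some names also stand in rows where several gene names are joined, and reads in these rows are in doubt between the genes named. Such rows held 10.2% of the reads of HARS, 33.1% of those of HARS2, 51.2% of those of VARS2 and 99.3% of those of SARS2. The own row of SARS2, the seryl enzyme, held 7.71, 10.1 and 8.28 normalised reads after ELF4 siRNA and 4.71, 4.57 and 8.50 after control siRNA, too few to be tested. Its joined rows went both ways. The row joined with CTC-360G5.8 had a log2 fold change of 0.24 (limma adjusted p = 0.00489) and the row joined with CTC-360G5.8 and FBXO17 one of -0.24 (limma adjusted p = 0.0166). With own and joined rows added, SARS2 had a mean of 1128 after ELF4 siRNA and 1081 after control siRNA, and it did not pass. HARS2 added to its joined row fell, at a log2 fold change of -0.18 (limma adjusted p = 0.00891), while the adjusted p of its own row alone was 0.0769. Over all 17 alternatives it ran between 0.00891 and 0.3305. The joined row holds ZMAT2 as well.

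Summed over the 20 genes, the cytosolic synthetases had 138609, 138927 and 140668 normalised reads after ELF4 siRNA and 129484, 127713 and 127046 after control siRNA. The 16 mitochondrial genes had 18048, 18163 and 18187 after ELF4 siRNA and 18951, 18739 and 18613 after control siRNA. The cytosolic sum was higher in every ELF4 siRNA library than in any control library, also under upper-quartile scaling. The mitochondrial sum was lower in every ELF4 siRNA library with the authors' scaling, but with upper-quartile scaling it was 18382, 18673 and 18582 after ELF4 siRNA and 18402, 18567 and 18084 after control siRNA, and the groups overlapped. It leaves out the joined rows, where 99.3% of the reads of SARS2, 51.2% of those of VARS2 and 33.1% of those of HARS2 stand. The ratio of the sums leaves them out as well. This ratio, which does not depend on scaling, was 7.69 ± 0.04 after ELF4 siRNA and 6.82 ± 0.01 after control siRNA (SD, n = 3 each). It has no test, since the members were chosen with results in view.

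Enzymes of the same amino acid were then compared across compartments as a log2 ratio within each library. Of 16 cytosolic and mitochondrial pairs, 14 had a higher mean ratio after ELF4 siRNA, with a median difference of 0.16. In 8 pairs the groups did not overlap, and each of these was higher after ELF4 siRNA. Among single genes the groups did not overlap for 53.6% of all tested and for 64.6% of those with a mean of at least 100. No such share was computed for ratios of other genes, and EPRS enters both with EARS2 and with PARS2. With 3 libraries against 3 the exact two-sided permutation test cannot go below p = 0.1, and these 8 pairs reached it (adjusted p = 0.2 over the 16 pairs), so no pair could pass.

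The widest change was that of NARS over NARS2, whose log2 ratio was 2.09, 2.09 and 2.08 after ELF4 siRNA and 1.64, 1.56 and 1.70 after control siRNA, a difference of 0.46. LARS over LARS2 had log2 ratios of 3.87, 3.82 and 3.97 after ELF4 siRNA and 3.53, 3.47 and 3.51 after control siRNA, a difference of 0.38. CARS over CARS2 had 0.665, 0.68 and 0.74 after ELF4 siRNA and 0.35, 0.34 and 0.32 after control siRNA, a difference of 0.36. In the asparagine and leucine pairs the log2 fold change of the mitochondrial gene (-0.31 and -0.29) was larger in size than that of the cytosolic gene (0.15 and 0.10). In the cysteine pair the cytosolic gene rose and the mitochondrial gene did not pass. The other pairs without overlap were AARS over AARS2 (0.19), EPRS over EARS2 (0.25), EPRS over PARS2 (0.15), IARS over IARS2 (0.23) and YARS over YARS2 (0.07). The difference was below 0 for VARS over VARS2 (-0.07) and for SARS over SARS2 (-0.38). The SARS pair rests on the few reads of the own row of SARS2, and with its joined rows added the difference was 0.08. With the joined rows of VARS2 added, the difference of the VARS pair was -0.0089.

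**Figure D3:**
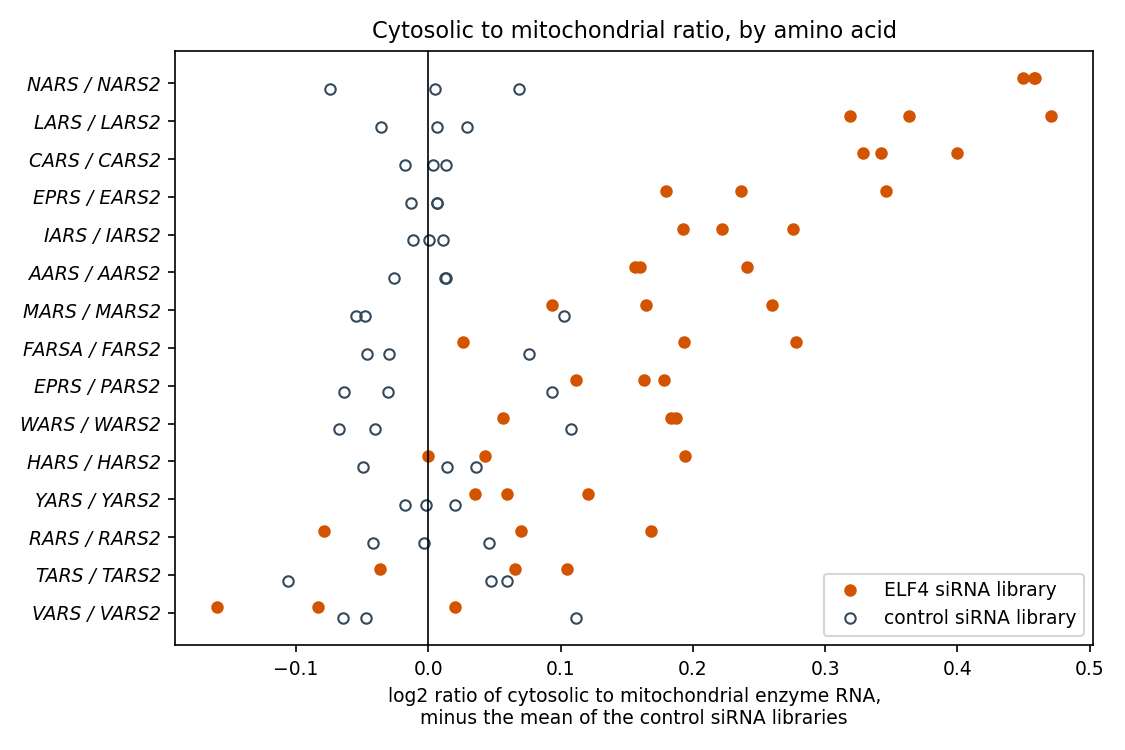
Log2 ratio of cytosolic over mitochondrial enzyme for 15 pairs, minus the mean ratio of the control siRNA libraries, with a filled point for each ELF4 siRNA library above an open point for each control siRNA library. The SARS pair is left out for the low counts of SARS2. NARS over NARS2 shows the widest gap, 0.46 between the group means.

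Levels between genes were compared per kilobase of coding sequence. Reads are counted per gene and the length is that of the coding sequence alone, so the levels are approximate between genes. SARS was the most abundant at 6327 normalised reads per kilobase after ELF4 siRNA and 5726 after control siRNA. In control siRNA libraries it was followed by TARS (4152), GARS (4070), KARS (3815) and IARS (3744). TARS and GARS differed by less than the sum of their SDs, and so did KARS and IARS. After ELF4 siRNA GARS, at 5192, stood above TARS, at 4195. In control libraries 17 of the 20 cytosolic genes lay above every mitochondrial gene per kilobase, the exceptions being QARS, DARS and CARS. The highest mitochondrial genes were IARS2 (1581 after ELF4 siRNA and 1643 after control siRNA) and EARS2 (1339.5 after ELF4 siRNA and 1295 after control siRNA). Apart from SARS2, whose reads stand in joined rows, PARS2 was lowest at 86.1 after ELF4 siRNA and 77.4 after control siRNA.

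Genes that act beside the synthetases were counted from lists. For comparison, 20.7% of all tested genes rose and 24.4% fell. Of the scaffold proteins of the multisynthetase complex, AIMP1 and AIMP2 did not pass, and EEF1E1 fell (-0.38, limma adjusted p = 0.00312). QRSL1 and PET112, subunits of the amidotransferase that makes glutaminyl-tRNA in mitochondria, both fell (-0.20 and -0.23, limma adjusted p = 0.00522 and 0.0200). PET112 did not pass with upper-quartile scaling, without the trend, or without ELF4 siRNA replicate 3 or control replicate 2. Of 7 tested genes of editing, tRNA end processing and export, 2 rose and 2 fell. XPOT, which exports tRNA from the nucleus, rose (0.19), as did MTFMT (0.31), which formylates the initiator methionyl-tRNA of mitochondria. TRNT1, which adds the CCA end, fell (-0.40), as did TRMU (-0.16), which modifies mitochondrial tRNAs. TRMU did not pass with upper-quartile scaling, or without ELF4 siRNA replicate 3, control replicate 1 or control replicate 2, and neither TRMU nor XPOT passed without the trend.

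Further along translation, 4 of 5 tested cytosolic elongation factors rose and none fell, with log2 fold changes of 0.79 for EEF2 and 0.57 for EEF1A2. The fifth, EEF1D, passed as a rise with upper-quartile scaling. Of 12 cytosolic initiation factors 2 rose (EIF2S3 at 0.30 and EIF2B5 at 0.18) and 3 fell, led by EIF2S2 (-0.53) and EIF4E (-0.30). These counts are near the shares of all tested genes, of which 20.7% rose and 24.4% fell. The median log2 fold change of the initiation factors was -0.05, turning to 0.02 with upper-quartile scaling. Of 72 mitochondrial ribosomal proteins 4 rose and 40 fell, with a median of -0.17, and with upper-quartile scaling 8 rose and 31 fell. MRPL9 (-0.57) and MRPS27 (-0.45) had the smallest adjusted p among the falls, and MRPL10 (0.29) and MRPS25 (0.24) rose. Of 10 mitochondrial translation factors 1 rose (MTIF3, 0.33) and 2 fell (TSFM at -0.30 and C12orf65 at -0.19), and their median of -0.03 turned to 0.03 with upper-quartile scaling.

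The amino acid response list includes the sensors, transcription factors and targets of the pathway that acts on synthetase genes. The list was chosen with earlier results of these data known, so its counts are a description only. Of its 15 tested genes 11 rose and 3 fell, and their log2 fold changes had a median of 0.49. Beside this and the counts below, 20.7% of all tested genes rose and 24.4% fell. CHAC1, which degrades glutathione, had a log2 fold change of 1.55 and VLDLR, a lipoprotein receptor, one of 1.43, while the transcription factor ATF3 fell (-0.64) and so did the sensor kinase EIF2AK4 (-0.25). Of 12 genes of amino acid synthesis 4 rose and 2 fell, with ASNS, which makes asparagine, at 0.71 and PYCR1, of proline synthesis, at 0.44. SHMT2 (-0.24) and ALDH18A1 (-0.12) fell. ALDH18A1 did not pass with edgeR, DESeq2, upper-quartile scaling, no filter or no trend, and of the 6 omissions of a library it passed only that of ELF4 siRNA replicate 2. Of 10 amino acid transporters 2 rose, SLC7A1 (0.18) and SLC1A4 (0.43), and 5 fell, led by the leucine carrier SLC7A5 (-0.69) and SLC38A1 (-0.46). With upper-quartile scaling 3 transporters fell. SLC1A4 did not pass without the trend, or without ELF4 siRNA replicate 3 or control replicate 1. The 6 genes of cell division given beside these lists all fell, and they summed to 34331 to 36659.6 normalised reads after ELF4 siRNA and 58521 to 59204 after control siRNA. Their part in the values of the synthetases was not tested.

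**Figure D4:**
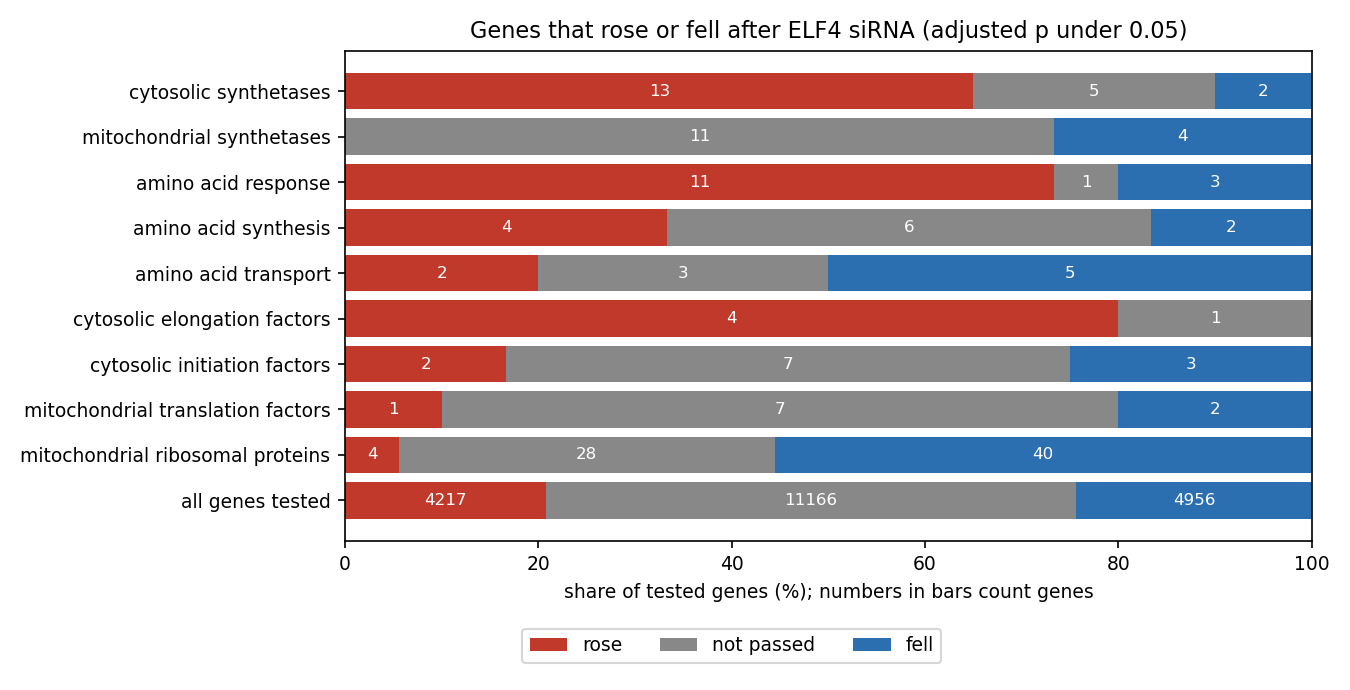
Share of the tested genes of each list (horizontal axis, percent) that rose, did not pass or fell after ELF4 siRNA against control siRNA, with the number of genes written in the bars. Of the cytosolic synthetases 13 of 20 rose and of the mitochondrial ones 0 of 15, beside 11 of 15 genes of the amino acid response and 4 of 72 mitochondrial ribosomal proteins. Members and lists were chosen with earlier results of these data known.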

How the data were processed

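The deposited table holds a signal, a normalised read count per gene, for 6 polyA RNA libraries, per the file headers and labels. The submitters' processing notes name the hg19 build with TopHat, featureCounts and DESeq2. The sources used here give neither versions nor annotation nor a strand setting, so antisense partners cannot be told apart. Values were whole reads divided by 1 size factor per library (100% within 0.001). Of 26906 rows, 2148 join several names.

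ELF4 siRNA was compared with control siRNA by limma 3.58.1 with a trend on log2(value + 1), which understates changes of low genes, after a filter of at least 10 in at least 3 libraries. Adjustment was over all tested genes at a threshold of 0.05. edgeR 4.0.16 and DESeq2 1.42.0 were run on recovered reads as alternatives, with the other settings of the closing section. Within a group libraries differed by more than counting noise (chi-square per degree of freedom 2.05 to 5.78), so none was counted as deposited more than once. This does not show that they came from separate cultures. The fit was also run on simulated counts with known changes in few genes. In these data many genes were called, so that run does not check the calls made here. Pair ratios were tested by exact permutation.

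Members and lists were chosen with earlier results of these data known. Called members with the smallest adjusted p (up to 6 for each class and direction), GARS, KARS, EPRS and the highest and lowest of each class have values per library, as do NARS and LARS in ratios. TARS and the ratio of FARSA to FARSB were chosen after their values were seen. Up to 2 genes per list and direction are named. Some genes that this rule or the marker lists hold are not reported here. Coding lengths are the longest of GENCODE 29 in place of the RefSeq proteins first planned, and promoter windows are those of RefSeq. R 4.3.3 and Python 3.11.15 were used.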

Additional observations from a re-analysis of the deposited data

How the results depend on the processing

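Over all alternatives no log2 fold change of a tested synthetase that was called changed its sign, and over the 17 alternatives with adjusted p as the sole threshold 48 values lost their call while 3 gained one. The fold threshold of 0.25 ended 14 more calls. Among genes without a call, KARS, TARS, IARS2, MARS2, TARS2, VARS2 and WARS2 took both signs. With limma without the trend 7 cytosolic genes rose and 0 fell, and 2 mitochondrial genes fell. With upper-quartile scaling 0 cytosolic genes fell, 1 mitochondrial gene rose and 2 fell. With a log2 fold change of at least 0.25 in size 3 cytosolic genes rose and 0 fell, and 2 mitochondrial genes fell. Leaving out 1 library at a time gave 8 to 12 cytosolic rises, 0 to 2 cytosolic falls, 0 mitochondrial rises and 3 to 4 mitochondrial falls. Without control siRNA replicate 3, the deepest library, there were 8 cytosolic rises and 0 falls. With a replicate block 13 cytosolic genes rose and 2 fell, 0 mitochondrial genes rose and 4 fell, and over all genes 4564 rose and 5346 fell, against 4217 and 4956 without it. The labels give each library a replicate number and no pairing, and neither the main fit nor the permutation test treated libraries as pairs. Deviations of libraries with the same number correlated at 0.029, 0.0748 and 0.041, and others at -0.0572 to 0.0152. Each library correlated best with its own number, a hint from the data and not from the design. The ratio of SARS over SARS2, -0.38 from own rows, was 0.08 with joined rows added, and that of VARS over VARS2, -0.07 from own rows, was -0.0089, an alternative chosen after seeing the data. The own row of SARS2 was too shallow to test. On recovered reads edgeR called 4454 rises and 4807 falls over all genes, and DESeq2 3296 and 4222. Pseudocounts of 0.5 and 5, no filter, a mean of at least 100, TMM scaling and joined rows added left every count of synthetases within 1.5 times of that reported.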
